A study of Homo sapiens with 12 samples.

Results

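Metallothioneins are small cysteine-rich proteins that bind zinc and copper. The 8 genes described here, MT2A, MT1E, MT1X, MT1F, MT1M, MT1A, MT1G and MT1H, were chosen by symbol, and each matched 1 of the 57500 genes in the count table. Their products buffer zinc and copper inside the cell, take up toxic metals such as cadmium and react with oxidants. Their transcription is switched on by the zinc-sensing factor MTF1, which binds short metal response elements (MREs) in their promoters, and several of them also respond to glucocorticoids. MT2A and the MT1 genes are copies that lie side by side, and MT2A is a member that many human tissues express.

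RNA sequencing of total RNA, depleted of ribosomal RNA, was available for 12 libraries from 3 established human cancer lines, in 4 groups of 3 that the labels call biological replicates. The ovarian cancer line PEO4 was kept in its usual medium (control) or given recombinant human TGF-β, a cytokine, at 10 ng/mL for 6 days. SW480 came from a primary colorectal tumour and SW620 from a metastasis of the same patient, and neither received a treatment. The design asks how the line from the metastasis differs from the line from the primary tumour, and what TGF-β changes in PEO4.

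No group carries a stated genetic change. Each line is a single established line, so the tumour site and the line cannot be told apart, and PEO4 was grown in a different medium (RPMI 1640) from the SW lines (DMEM), so no test was made between them. The labels do not say whether replicates came from separate cultures, so p-values measure the spread between these libraries, which may be technical. Fewer expressing cells and less RNA per cell cannot be told apart in such bulk samples.

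The libraries held 14.5 to 22.0 in units of 1e6 gene counts. Levels are given as CPM, counts per 1e6 counts after TMM scaling of the library totals. A gene with 0 counts may hold up to 3 counts, a limit that covers counting error only. Per 1e6 counts of the library total, without TMM scaling, this is 0.136 to 0.206 depending on the library. The summed level of 6 ovarian markers was 103 to 122 CPM in SW480 and 119 to 170 CPM in SW620, far under the 5604 to 9261 CPM of untreated PEO4 and the 3153 to 4940 CPM of treated PEO4. The sum of 6 colorectal markers was 34.9 to 56.2 CPM in SW480, 273 to 407 CPM in SW620, 0.733 to 3.31 CPM in PEO4 control and 0.912 to 2.52 CPM in PEO4 with TGF-β, where CDX1 and KRT20 had 0 counts. SW620 replicate 3 stands apart in a set of 7 genes that are high in PEO4 and nearly silent in the SW lines. They stood at 1.19% of their PEO4 control level (1.35% of their level with TGF-β) in that library, against 0.144% and 0.0499% in SW620 replicates 1 and 2 and 0.123% to 0.216% in SW480. For this reason the fold changes of the tested metallothioneins are given with and without SW620 replicate 3. Among the other genes named in the SW comparison, leaving it out turned no direction and lost 3 calls, those of GCLC, NUP93 and SLC39A10, while levels and shares include it.

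In GENCODE 29 (GRCh38) the 8 genes lie on chromosome 16 between bases 56608199 and 56684196, a span of 76.0 kb. The order along the chromosome is MT2A (56608199 to 56609497), MT1E (56625475 to 56627112), MT1M (56632233 to 56633986), MT1A (56638666 to 56640087), MT1F (56657694 to 56660698), MT1G (56666731 to 56668065), MT1H (56669814 to 56671129) and MT1X (56682424 to 56684196). MT1G is read from the minus strand and the other 7 from the plus strand. All 8 are annotated as protein-coding genes, and counts are sums over exons. Because the genes are similar, reads may be split or dropped between them. Between 1.22% (MT1F) and 18.3% (MT1X) of the 50-base windows in their transcripts also occur in a transcript of another gene. At 100 bases the share was 0% except in MT1H (1.39%, shared with MT1HL1) and MT1X (11.3%, shared with AC026461.1). AC026461.1 is an annotated transcript on the same strand that covers 321 exon bases of MT1X, so counts of MT1X are uncertain to that extent.

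The RefSeq promoter table (GRCh38.p14) held 3 of the 8 genes, MT2A, MT1X and MT1H, and their promoters are shown because they carry the MRE letters through which the family is known to be switched on, and because MT2A and MT1X were among the genes that changed in both comparisons while MT1H stayed near 0 counts. Each sequence is the 250 bases before the RefSeq start on the plus strand, 5′ to 3′. GENCODE 29 starts MT2A upstream of its window, so that window lies wholly within annotated MT2A exon. The MT1X window runs past the GENCODE 29 start of MT1X. Capitals mark the MRE core, searched on both strands as TGCGCNC or TGCACNC. The windows are chr16:56608334-56608583 for MT2A, chr16:56682220-56682469 for MT1X and chr16:56669564-56669813 for MT1H.
MT2A: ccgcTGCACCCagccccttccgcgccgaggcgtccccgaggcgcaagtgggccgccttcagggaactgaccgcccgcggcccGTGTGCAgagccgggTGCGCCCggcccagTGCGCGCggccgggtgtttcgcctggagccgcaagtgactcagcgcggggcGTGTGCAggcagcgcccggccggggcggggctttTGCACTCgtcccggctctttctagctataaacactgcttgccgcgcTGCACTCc
MT1X: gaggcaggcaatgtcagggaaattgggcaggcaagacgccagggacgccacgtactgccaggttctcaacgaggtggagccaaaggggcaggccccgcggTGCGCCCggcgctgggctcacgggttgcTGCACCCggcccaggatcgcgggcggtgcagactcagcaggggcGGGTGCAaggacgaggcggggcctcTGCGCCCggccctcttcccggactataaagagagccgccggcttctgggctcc
MT1H: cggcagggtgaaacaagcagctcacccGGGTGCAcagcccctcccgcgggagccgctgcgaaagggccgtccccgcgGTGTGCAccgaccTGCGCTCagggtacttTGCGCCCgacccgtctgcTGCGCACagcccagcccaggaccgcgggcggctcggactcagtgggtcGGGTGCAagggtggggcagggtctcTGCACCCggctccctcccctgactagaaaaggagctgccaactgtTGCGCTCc

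The MT2A promoter holds 7 MRE cores, the MT1X promoter 4 and the MT1H promoter 8. Among 35116 promoter windows of the same length, 24.8% hold at least 1 MRE core, 0.370% hold 4 or more and 0.0513% hold 6 or more. The TATA box letters TATAAA, searched on the plus strand, start 29 bases before the MT2A start and 30 bases before the MT1X start and occur in 6.80% of all windows. They do not occur in the MT1H window. The palindromic AP-1 letters TGANTCA start 104 bases before the MT2A start, are absent from the MT1X and MT1H windows and occur in 6.57% of all windows. The inverted-repeat pattern of a glucocorticoid response element, searched on both strands, occurs in 0.327% of all windows and in none of these 3. Bases farther upstream than the 250 of each window were not searched, so an element there would be missed. A match is a description of letters and not a measured binding site. The promoter with the most MRE cores of the 3, that of MT1H, belongs to the gene with the fewest counts, and no relation of MRE number to level was tested.

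**Figure D1:**
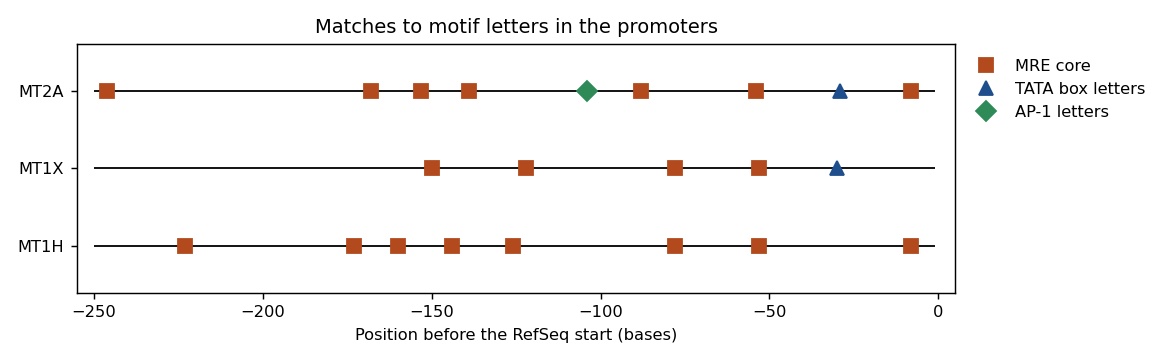
Position of each match in the 3 promoters, in bases before the RefSeq start (x axis), for MT2A, MT1X and MT1H (rows). Squares are MRE cores (7, 4 and 8), triangles are TATAAA and the diamond is TGANTCA, and MT1H has MRE cores with neither of the other letters.

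The metallothionein level differed widely between the lines. The 8 genes summed to 1091, 798 and 731 CPM in PEO4 control and to 1960, 1896 and 1485 CPM in PEO4 with TGF-β. In the SW lines the sum was 410, 265 and 388 CPM in SW480 and 84.3, 94.6 and 171 CPM in SW620. The sums did not overlap between the groups, in the order PEO4 with TGF-β (1780 ± 258, SD, n = 3), PEO4 control (873 ± 191), SW480 (354 ± 78.0) and SW620 (117 ± 47.6). As a share of all counts these means were 0.159%, 0.0793%, 0.0387% and 0.0126%. The highest SW620 value was that of replicate 3, and the SW620 mean without it was 89.4 CPM.

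MT2A made up most of the counts of the 8 genes in every library. Its share of them was 73.0% ± 3.40 in SW620, 78.8% ± 3.06 in SW480, 82.6% ± 1.88 in untreated PEO4 and 84.1% ± 1.85 in treated PEO4 (SD, n = 3). MT1E held 8.13%, 12.3%, 12.3% and 10.7% in the same order of groups. MT1X held 2.69% ± 0.274 in PEO4 control, 6.24% ± 0.639 in SW480 and 11.2% ± 2.21 in SW620, without overlap between these groups. In PEO4 with TGF-β it held 3.31% ± 0.487, which overlapped PEO4 control. MT1A and MT1G together with MT1X fill the part of SW620 counts that MT2A and MT1E leave. MT1A held 4.39% ± 0.994 and MT1G 2.74% ± 0.635 of SW620 counts, against 0.868% ± 0.372 and 0.0725% ± 0.0516 in SW480.

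Per kilobase of annotated exon, MT2A was the highest of the 8 genes in every group, at 66.3 CPM per kb in SW620, 216 in SW480, 556 in untreated PEO4 and 1152 in treated PEO4. MT1E was next of the 8 in SW480 and both PEO4 groups, at 40.4, 101 and 182 CPM per kb. In SW620 MT1A (13.7 ± 8.59), MT1E (8.58 ± 3.06) and MT1X (7.12 ± 2.10 CPM per kb) followed MT2A, and their values overlapped. The order behind MT2A depends on the length used. The alternative was the length of a single main transcript per gene, a choice made after seeing the data. By it MT1X came next in SW620 at 28.1 CPM per kb, then MT1A at 13.7 and MT1E at 12.8. MT1A and MT1F also changed places in SW480, where they were then nearly equal (8.26 and 8.27), as did MT1M and MT1G in both PEO4 groups. MT1X in treated PEO4 moved from 33.1 to 130 CPM per kb. MT1H was last in every group under both lengths.

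**Figure D2:**
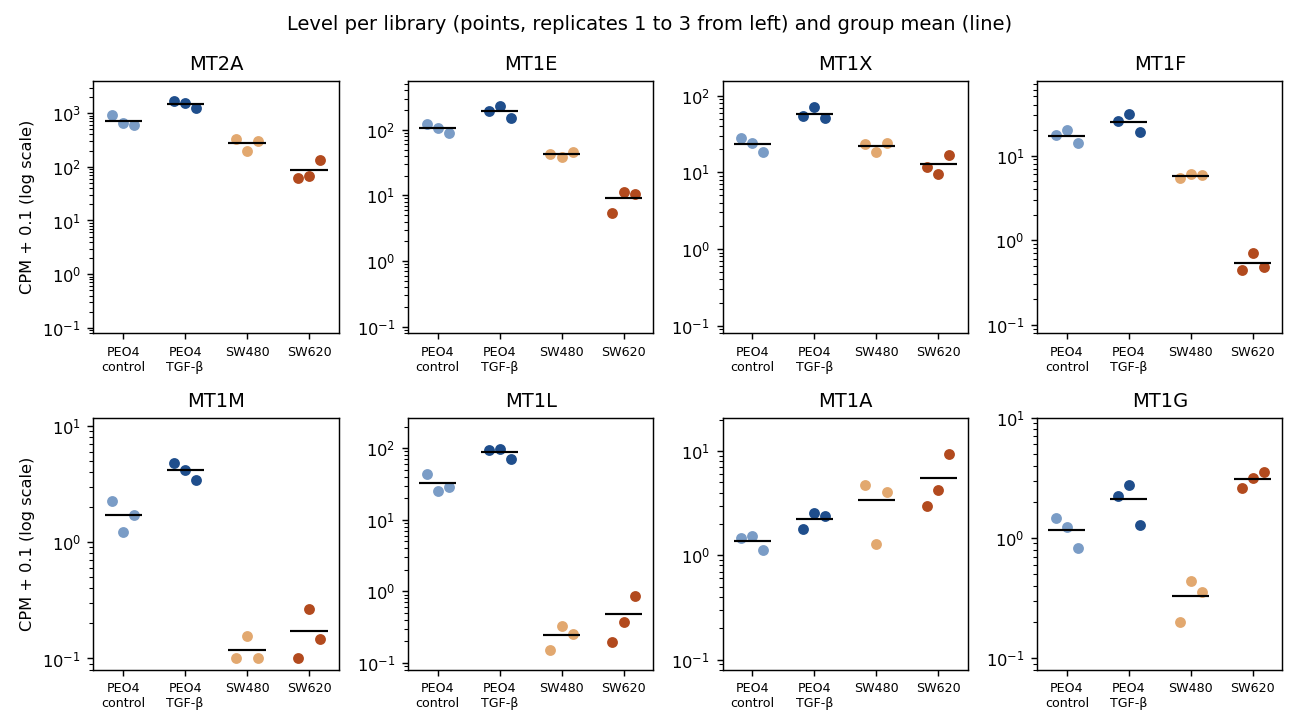
Level of 8 metallothionein genes in each of 12 libraries (points, CPM plus an offset of 0.1, log scale) and the group mean (line) in the 4 groups. The pseudogene MT1L is shown in place of MT1H. MT2A, MT1E and MT1F step down from PEO4 to SW480 to SW620, MT1M and MT1L are close to 0 in both SW lines, and MT1G is lowest in SW480.

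SW620 held less MT2A, MT1E, MT1F and MT1X RNA than SW480 and more MT1G RNA, while MT1A overlapped between the lines and was not called. Of the 8 genes 6 passed the filter on low counts, and 5 of these had an edgeR adjusted p under 0.05 (quasi-likelihood test, Benjamini-Hochberg over 20941 genes), 4 lower and 1 higher in SW620. Over all genes tested 30.5% were called, 17% lower and 13.5% higher in SW620. The replicates of the 2 lines did not overlap for 5 of the 6 genes, against 43.6% of all genes tested, and 1 of the 6 was higher in SW620 without overlap, against 21.6%. At an unadjusted p under 0.05 40.7% of all genes pass. The median log2 fold change was -1.28 over the 6 genes and 0.03 over all genes tested.

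MT2A, the main metallothionein of these cells by counts, stood at 334, 200 and 308 CPM in SW480 and at 61.6, 65.9 and 131 CPM in SW620. Every SW620 library was below every SW480 library, with replicate 3 the highest of SW620. The level was 3.34-fold lower in SW620 (log2 fold change -1.74 ± 0.31 SE, edgeR adjusted p = 0.00282). Without SW620 replicate 3 the log2 fold change was -2.17 (edgeR adjusted p = 0.000187).

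MT1E, a close copy of the other MT1 genes, stood at 42.5, 39.1 and 45.8 CPM in SW480 and at 5.35, 11.3 and 10.4 CPM in SW620. The SW480 replicates lay close together and well above those of SW620. The level was 4.81-fold lower in SW620 (log2 fold change -2.27 ± 0.26 SE, edgeR adjusted p = 0.000242), and the log2 fold change was -2.38 without SW620 replicate 3.

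MT1F had the largest decrease of the 4. It had 109, 107 and 111 counts in SW480 (5.40, 6.00 and 5.73 CPM) and 7, 11 and 8 counts in SW620 (0.343, 0.600 and 0.385 CPM). The groups were far apart, and the SW620 libraries were only a little above the level that 3 counts give. The level was 13.1-fold lower in SW620 (log2 fold change -3.71 ± 0.36 SE, edgeR adjusted p = 8.57e-05), and the log2 fold change was -3.62 without SW620 replicate 3.

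MT1X changed least among the genes called. Its levels were 23.1, 18.3 and 23.9 CPM in SW480 and 11.6, 9.55 and 16.8 CPM in SW620. The lowest SW480 library and the highest SW620 library, replicate 3, almost met. The level was 1.77-fold lower in SW620 (log2 fold change -0.82 ± 0.22 SE, edgeR adjusted p = 0.0208). The call was lost without SW480 replicate 1 (edgeR adjusted p = 0.109), SW480 replicate 3 (0.0909) or SW620 replicate 1 (0.119), while without SW620 replicate 3 the log2 fold change was -1.07 (edgeR adjusted p = 0.00344).

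MT1G moved the other way. It had 2, 6 and 5 counts in SW480 (0.0991, 0.336 and 0.258 CPM) and 51, 56 and 72 counts in SW620 (2.5, 3.06 and 3.47 CPM). All SW620 libraries were far above all SW480 libraries, which were near the level that 3 counts give. The level was 12.5-fold higher in SW620 (log2 fold change 3.65 ± 0.50 SE, edgeR adjusted p = 0.000643), and the log2 fold change was 3.54 without SW620 replicate 3. Like most of the shared windows in the family, those of MT1G, 16.5% at 50 bases, fell to 0% at 100 bases.

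MT1A stood at 4.66, 1.18 and 3.97 CPM in SW480 and at 2.90, 4.09 and 9.29 CPM in SW620. The groups overlapped, with SW480 replicate 2 low and SW620 replicate 3 high. The log2 fold change was 0.69 ± 0.55 SE (edgeR adjusted p = 0.388), and 0.06 without SW620 replicate 3 (edgeR adjusted p = 0.937). MT1M had 0, 1 and 0 counts in SW480 and 0, 3 and 1 counts in SW620, and MT1H had 0 counts in SW480 and 0, 0 and 1 counts in SW620. Both were below the filter and were not tested, and no difference was detectable at this depth.

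If the PEO4-like signal in SW620 replicate 3 came from PEO4, it would touch these genes to different degrees, because PEO4 expresses most of them more highly. Its source was not tested, and the estimate applies the rate of 7 genes to every gene. With PEO4 control as the source (1.19% of its level) 172 of the 2720 MT2A counts of that library would come from PEO4, and with TGF-β-treated PEO4 as the source (1.35% of its level) 397, or 6.34% to 14.6%. The share would be 11.7% to 23.3% for MT1E, 51.1% to 82.9% of 8 counts for MT1F and 1.60% to 4.47% for MT1X. For MT1A (0.158% to 0.297%) and MT1G (0.354% to 0.733%) it would be under 1%. MT1A, MT1G and MT1X were also highest of SW620 in this library, where the estimate accounts for few of their counts, while MT1E and MT1F were not. Genes outside the family, such as NQO1 (227 CPM, against 151 and 95.8 CPM), could be highest there too. Without SW620 replicate 3 the differences in MT2A, MT1E and MT1X were larger, and those in MT1F and MT1G slightly smaller.

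In the authors' deposited table the log2 fold changes of SW620 over SW480 are -1.75 for MT2A, -2.27 for MT1E, -3.73 for MT1F, -0.83 for MT1X, 3.69 for MT1G and 0.68 for MT1A. The same 5 genes have an adjusted p under 0.05 in the authors' deposited table, with the largest of the 5 at MT1X (0.00701).

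**Figure D3:**
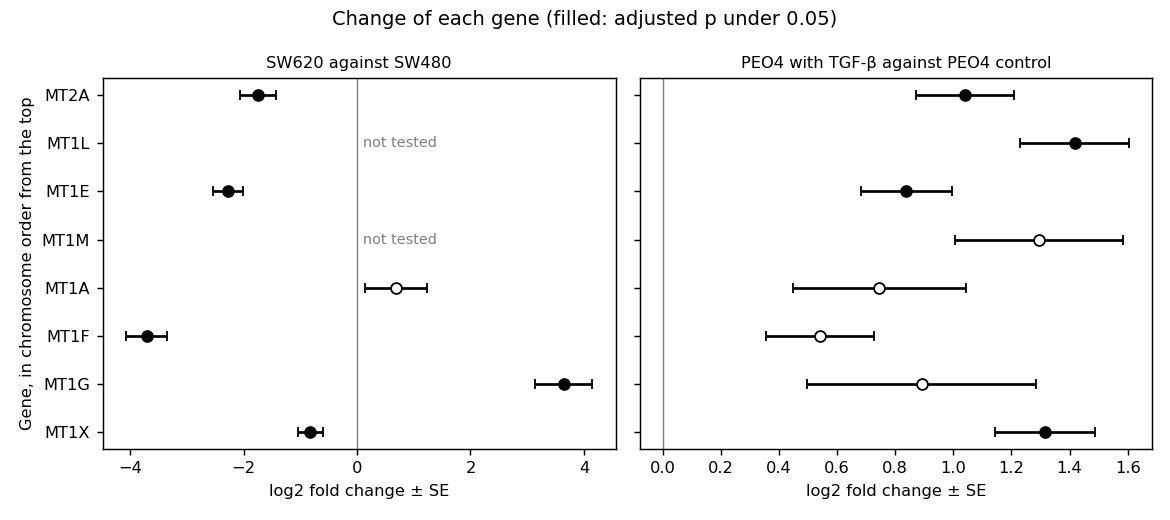
Log2 fold change with its standard error (x axis) of 8 metallothionein genes in chromosome order (y axis), SW620 against SW480 on the left and PEO4 with TGF-β against control on the right, on axes of different range. The pseudogene MT1L is shown in place of MT1H. Filled points have an adjusted p under 0.05, and MT1L and MT1M were not tested in the SW lines. The left panel has points on both sides of 0 and the right panel has every point above 0.

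In PEO4, MT2A, MT1E and MT1X rose 1.79-fold to 2.49-fold after 6 days of TGF-β, and the 4 other genes tested had estimates above 0 that did not pass the test. Of the 8 genes 7 passed the filter, and 3 of them, all higher, had an edgeR adjusted p under 0.05. Over the 19064 genes tested 2.26% were called, 1.27% higher and 0.991% lower with TGF-β. The control and TGF-β libraries did not overlap for 5 of the 7 genes, all higher with TGF-β, against 21.3% of all genes tested in either direction and 11.7% higher. All 7 had an unadjusted p under 0.05, against 16.7% of all genes tested. DESeq2, which called more genes than edgeR (967 of the genes tested), called 4 of the 7. The median log2 fold change was 0.89 over the 7 genes and -0.02 over all genes tested.

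MT2A stood at 919, 642 and 606 CPM in control and at 1678, 1555 and 1256 CPM with TGF-β. The lowest TGF-β library was above the highest control library. The level was 2.06-fold higher with TGF-β (log2 fold change 1.04 ± 0.17 SE, edgeR adjusted p = 0.0175).

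MT1E stood at 122, 108 and 89.0 CPM in control and at 193, 230 and 152 CPM with TGF-β. The groups did not overlap. The level was 1.79-fold higher with TGF-β (log2 fold change 0.84 ± 0.16 SE, edgeR adjusted p = 0.0301).

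MT1X had the largest rise of the genes called, from 28.2, 23.9 and 18.1 CPM in control to 54.4, 70.5 and 51.1 CPM with TGF-β. Here too the groups did not overlap, and the gap between them was wider than the spread within either. The level was 2.49-fold higher with TGF-β (log2 fold change 1.31 ± 0.17 SE, edgeR adjusted p = 0.00721).

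These 3 calls depended on single libraries to different degrees, and none was lost without control replicate 1 or TGF-β replicate 3. Without control replicate 2 none of the 3 was called, with edgeR adjusted p = 0.122 for MT2A, 0.151 for MT1E and 0.0579 for MT1X. MT2A was also lost without TGF-β replicate 1 (0.0762) or TGF-β replicate 2 (0.0783), and MT1E without either of these (0.111 and 0.113) or without control replicate 3 (0.0750). Fitted with the SW libraries in a single model, MT2A (edgeR adjusted p = 0.151) and MT1E (0.140) were not called and MT1X was. The log2 fold changes stayed between 0.94 and 1.26 for MT2A, 0.70 and 0.98 for MT1E and 1.17 and 1.48 for MT1X over the 15 alternatives run. In the authors' deposited table the log2 fold changes are 1.04 for MT2A, 0.84 for MT1E and 1.31 for MT1X, with adjusted p-values of 2.17e-08, 1.63e-05 and 7.21e-11.

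MT1M, a low-abundance copy, had 38, 19 and 31 counts in control (2.14, 1.13 and 1.60 CPM) and 86, 76 and 67 counts with TGF-β (4.73, 4.08 and 3.32 CPM). The groups did not overlap. The log2 fold change was 1.29 ± 0.29 SE, and the edgeR adjusted p of 0.0570 missed the threshold. It passed with DESeq2 (adjusted p = 0.00605), without the filter on low counts (edgeR adjusted p = 0.00168) and without control replicate 1 (0.0251), and the authors' deposited table gives 0.00648.

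MT1F stood at 17.4, 19.7 and 14.2 CPM in control and at 25.7, 30.7 and 18.8 CPM with TGF-β, and the groups overlapped. Its log2 fold change was 0.54 ± 0.19 SE (edgeR adjusted p = 0.190), and it passed the test when no filter on low counts was used (edgeR adjusted p = 0.00613). MT1A stood at 1.35, 1.43 and 1.04 CPM in control and at 1.70, 2.47 and 2.28 CPM with TGF-β, without overlap (log2 fold change 0.75 ± 0.30 SE, edgeR adjusted p = 0.253). MT1G stood at 1.35, 1.13 and 0.725 CPM in control and at 2.14, 2.68 and 1.19 CPM with TGF-β, with overlap (log2 fold change 0.89 ± 0.39 SE, edgeR adjusted p = 0.299). These 2 genes rest on 14 to 50 counts a library. MT1H had 1, 0 and 0 counts in control and 0, 1 and 0 counts with TGF-β and was not tested.

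The order of the 4 groups differed between the genes. MT2A and MT1E had the order PEO4 with TGF-β, PEO4 control, SW480 and SW620, with no overlap between neighbours. MT1F followed the same order, with overlap between the PEO4 groups, and MT1X followed it with overlap between PEO4 control and SW480. MT1M was present in PEO4 and close to 0 counts in both SW lines. MT1A was highest in SW620 (5.43 ± 3.40 CPM), followed by SW480 (3.27 ± 1.84), PEO4 with TGF-β (2.15 ± 0.398) and PEO4 control (1.27 ± 0.209), where the first 3 overlapped as neighbours. MT1G was also highest in SW620 (3.01 ± 0.484 CPM) and lowest in SW480 (0.231 ± 0.121), and the PEO4 groups lay between them, with TGF-β overlapping both SW620 and control.

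Among the other genes of the family, MT1L stood out in PEO4. GENCODE 29 lists it as a transcribed unprocessed pseudogene at bases 56617476 to 56618818, between MT2A and MT1E. It stood at 42.7, 25.3 and 28.7 CPM in control and at 92.9, 96.1 and 71.5 CPM with TGF-β, without overlap. MT1L was 2.67-fold higher with TGF-β (log2 fold change 1.42 ± 0.19 SE, edgeR adjusted p = 0.00773), and this call was lost without control replicate 2 (0.0521). In the SW lines it had 1, 4 and 3 counts in SW480 and 2, 5 and 16 counts in SW620. The 16 counts belong to SW620 replicate 3, where the same estimate gives 7.69 to 23.0 counts from PEO4. Of the 50-base windows of MT1L 4.42% occur in another gene's transcript.

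The remaining relatives were at or near 0 counts. MT3, known from the brain, had 7, 9 and 12 counts in SW480, 1, 1 and 7 in SW620 and at most 1 in PEO4. The pseudogene MT1DP had 9, 9 and 10 counts in PEO4 control and 6, 6 and 5 with TGF-β. MT1JP reached 4 counts and MT1B 2 counts in a library, and MT1CP, MT1HL1 and MT4 had 0 counts throughout. None of these was tested.

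Genes on either side of the cluster were examined as its neighbours. For these and the lists below, edgeR called 30.5% of all genes tested between the SW lines and 2.26% in PEO4. An unadjusted p under 0.05 was reached by 40.7% and 16.7% of all genes tested. No such share is given for DESeq2 or limma-voom between the SW lines, or for limma-voom in PEO4. Counts of calls by these tools there therefore cannot be set against all genes. In SW620 against SW480, 9 of 12 flanking genes were tested, and edgeR called 4 higher and 1 lower. DESeq2 called 7 of the 9, limma-voom 5, and 8 had an unadjusted p under 0.05. OGFOD1 was higher in SW620 with a log2 fold change of 1.11 (edgeR adjusted p = 0.00728), CPNE2 with 0.96 (0.00333) and NUP93, a nuclear pore gene, with 0.67 (0.0230). The NUP93 call was lost without any library other than SW620 replicate 2 (edgeR adjusted p = 0.0554 to 0.0903). GNAO1, a G protein subunit gene, was lower with -2.65 (edgeR adjusted p = 2.15e-05). The median log2 fold change of the 9 flanking genes was 0.65, against -1.28 for the 6 metallothioneins. In PEO4 edgeR, DESeq2 and limma-voom each called 1 of 9 flanking genes, and 3 had an unadjusted p under 0.05. By edgeR it was CPNE2, with a log2 fold change of 0.62 (edgeR adjusted p = 0.0454). This call was lost without any library other than control replicate 1, and in the model of 12 libraries (edgeR adjusted p = 0.0673 to 0.208). The flanking median there was 0.18, against 0.89 for the 7 metallothioneins.

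**Figure D4:**
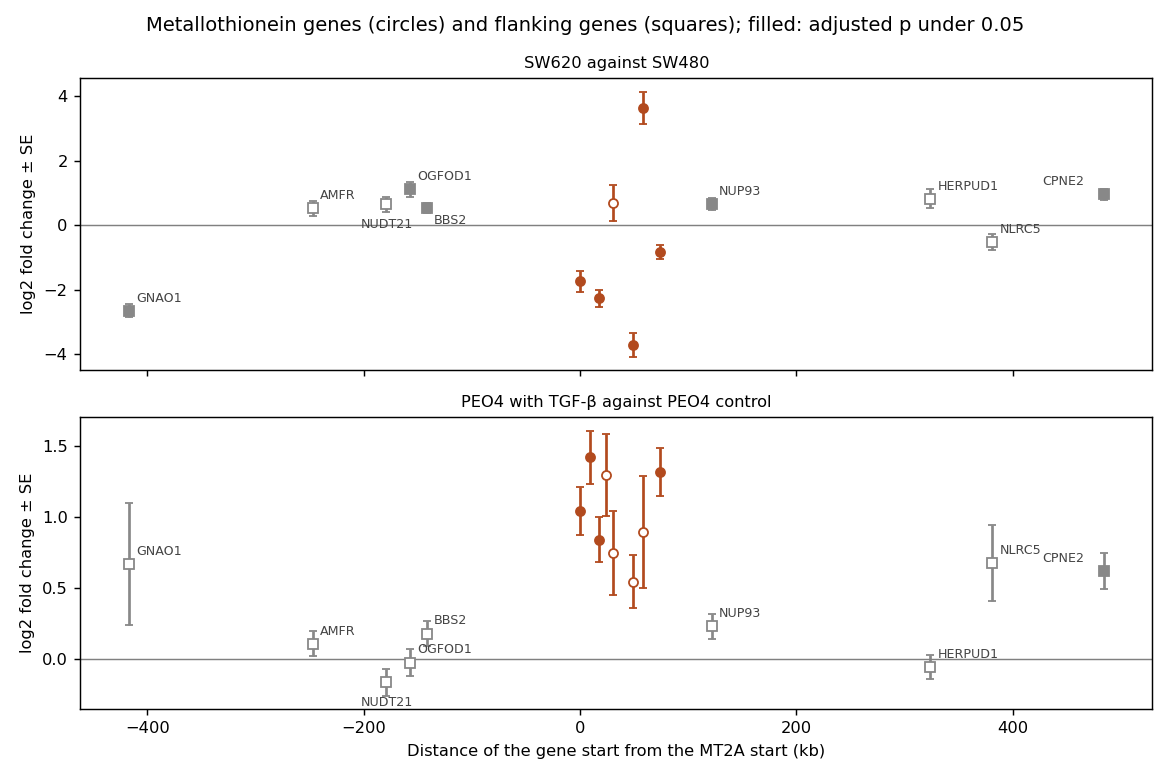
Log2 fold change with its standard error (y axis) against the distance of each gene start from the MT2A start in kb (x axis), for metallothionein genes with MT1L (circles) and flanking genes (squares, named), SW620 against SW480 above and PEO4 with TGF-β against control below. Filled symbols have an adjusted p under 0.05. In the lower panel the lowest circle, MT1F, is at 0.54, above 6 of the 9 squares.

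Genes of metal handling were followed as lists next to the metallothioneins. MTF1, the factor that binds MREs, stood at 29.2 to 39.1 CPM in SW480 and 26.3 to 34.0 CPM in SW620, with overlap (log2 fold change -0.26, edgeR adjusted p = 0.286). In PEO4 it stood at 61.9 to 71.6 CPM in control and 59.0 to 68.1 CPM with TGF-β, also with overlap (-0.11, edgeR adjusted p = 0.603). SLC30A1, which moves zinc out of the cell and is a known MTF1 target, was higher in SW620 at 42.1, 48.4 and 57.3 CPM than in SW480 at 27.6, 30.1 and 28.2 CPM. Its log2 fold change was 0.75 (edgeR adjusted p = 0.00690), lost without SW480 replicate 3 (0.0538). In PEO4 its estimate was -0.28 with TGF-β (edgeR adjusted p = 0.189), with no overlap between groups. In SW620 the called metallothioneins other than MT1G had the opposite sign.

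Of the zinc exporters 9 of 10 were tested between the SW lines, with 2 called higher, 3 called lower and a median log2 fold change of -0.27. SLC30A10, known to carry manganese out of the cell, had 909, 971 and 805 counts in SW480 (45.1, 54.4 and 41.5 CPM) and 7, 13 and 1 counts in SW620. The log2 fold change was -7.05 (edgeR adjusted p = 1.14e-05). SLC30A2 fell from 72, 55 and 86 counts to 7, 1 and 1 counts (log2 fold change -4.59, edgeR adjusted p = 0.000714), and SLC30A4 was also lower (-1.40, 0.00105). In PEO4 edgeR called 0 of 6 tested exporters, as did DESeq2 and limma-voom, and 1 had an unadjusted p under 0.05. Their median there was -0.08.

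Of the 14 zinc importers 12 were tested in each comparison. Between the SW lines 3 were called higher and 2 lower, with a median log2 fold change of 0.13. SLC39A5 rose from 1.19, 1.96 and 1.03 CPM in SW480 to 8.88, 9.0 and 10.0 CPM in SW620 (log2 fold change 2.70, edgeR adjusted p = 0.000256). SLC39A8, which also carries cadmium, was lower in SW620 (-1.46, edgeR adjusted p = 0.00154), as was SLC39A13 (-0.79, 0.00632, and 0.0566 without SW620 replicate 1). SLC39A10 was higher (1.01, edgeR adjusted p = 0.0297), although this call was lost without any library other than SW620 replicate 2 (0.0526 to 0.108). In PEO4 limma-voom called 1 importer, DESeq2 called 3 and 4 had an unadjusted p under 0.05. There SLC39A13, a zinc carrier of the secretory pathway, was the 1 importer that edgeR called, at 41.6, 36.6 and 38.3 CPM in control and 62.9, 52.1 and 55.7 CPM with TGF-β (log2 fold change 0.54, edgeR adjusted p = 0.0274). That call was lost without any library other than control replicate 1, and in the model of 12 libraries (edgeR adjusted p = 0.0648 to 0.151).

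The 11 copper genes were tested in both comparisons. In SW620 ATP7B, a copper-exporting pump, was lower (log2 fold change -1.56, edgeR adjusted p = 9.94e-05), ATOX1, the chaperone that hands copper to it, was lower (-1.46, 0.000438), and the related pump ATP7A was higher (0.99, 0.00203). By edgeR and limma-voom 3 of the 11 were called, by DESeq2 5, and 7 had an unadjusted p under 0.05, with a median of -0.58. In PEO4 edgeR called 0 of the 11, as did DESeq2 and limma-voom, 2 had an unadjusted p under 0.05, and the median was -0.01.

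Of the 12 metal and oxidant response genes, 1 was called higher and 2 lower in SW620. HMOX1, which breaks down heme, stood at 5.85, 5.44 and 7.48 CPM in SW480 and at 0.883, 1.58 and 1.64 CPM in SW620 (log2 fold change -2.22, edgeR adjusted p = 0.00107). GCLM, a subunit of the enzyme that starts glutathione synthesis, was lower (-1.39, edgeR adjusted p = 0.00498), while GCLC, the other subunit, was higher (0.61, 0.0248). The GCLC call was lost without any library other than SW620 replicate 2, and without the filter on low counts (0.0514 to 0.130). TXNRD1, thioredoxin reductase, was not called (-0.32, edgeR adjusted p = 0.395). In PEO4 edgeR and limma-voom called 0 of the 12, DESeq2 called 2, and 5 had an unadjusted p under 0.05, with a median log2 fold change of 0.08. The heat shock genes HSPA1B and HSPA1A, named after their values were seen and near-identical copies whose counts are uncertain, were the 2 that DESeq2 called (adjusted p = 0.00173 and 0.00820). HSPA1B stood at 153, 97.4 and 97.7 CPM in control and 229, 197 and 161 CPM with TGF-β, without overlap (log2 fold change 0.74, edgeR adjusted p = 0.0829), and HSPA1A had the same estimate, with overlap (0.74, edgeR adjusted p = 0.128). Both passed with edgeR without control replicate 1 (0.00570 and 0.0131). HMOX1 varied there from 5.66 to 17.9 CPM in control and from 15.0 to 43.8 CPM with TGF-β, with overlap (log2 fold change 1.15, edgeR adjusted p = 0.259, and 6.63e-06 without the filter on low counts), and TXNRD1 had a log2 fold change of 0.09 (edgeR adjusted p = 0.718).

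Among the glucocorticoid receptor and its targets 7 of 8 genes were tested. In SW620 edgeR called 2 higher and 3 lower, with a median log2 fold change of 0.07. In SW620 the receptor gene NR3C1 stood at 1.62, 1.25 and 3.23 CPM against 13.9, 11.8 and 15.0 CPM in SW480 (log2 fold change -2.77, edgeR adjusted p = 0.000334, and -3.25 without SW620 replicate 3). KLF9 was lower (-3.67, edgeR adjusted p = 8.74e-06), SGK1 was lower (-1.47, 0.0164, and 0.0956 without SW480 replicate 1) and FKBP5, another receptor target, was higher (0.73, 0.00771, and 0.0509 without SW480 replicate 3). DUSP1, a phosphatase gene named after its values were seen, was also higher, at 24.6, 40.0 and 93.1 CPM in SW620 against 15.6, 19.9 and 21.5 CPM in SW480 (log2 fold change 1.42, edgeR adjusted p = 0.0282, and 0.74 with 0.0367 without SW620 replicate 3). The DUSP1 call was lost without SW480 replicate 1 (0.0951), 2 (0.0547) or 3 (0.0637) and with limma-voom (0.0542). In PEO4 NR3C1 stood at 292, 284 and 269 CPM in control and at 212, 236 and 224 CPM with TGF-β (log2 fold change -0.34, edgeR adjusted p = 0.0599, and 0.00580 with DESeq2). SGK1, a kinase gene, was the 1 gene of this list that edgeR called in PEO4, where DESeq2 called 3, limma-voom 2, and 3 had an unadjusted p under 0.05. It stood at 6.03, 4.83 and 4.30 CPM in control and 9.84, 11.4 and 13.7 CPM with TGF-β (log2 fold change 1.19, edgeR adjusted p = 0.0157), and the call was lost without control replicate 2 (0.106), TGF-β replicate 2 (0.0682) or TGF-β replicate 3 (0.0512).

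The 5 genes whose profile over the 12 libraries lay closest to that of the summed metallothioneins were CYGB, SERPINB5, UCHL1, FAM49A and C19orf33. Likeness was the root mean square distance between profiles of log2(CPM + 1), each centred on its own mean, over 18702 genes. The distances were 0.246 to 0.309, against a median of 1.56 over these genes. CYGB, a heme-containing globin, stood at 0.436 ± 0.190 CPM in SW620, 3.32 ± 0.453 in SW480, 11.5 ± 2.44 in untreated PEO4 and 27.8 ± 3.04 in treated PEO4 (SD, n = 3). SERPINB5 had 0.842 ± 0.486, 4.11 ± 0.395, 15.1 ± 5.16 and 26.7 ± 4.81 CPM in the same order of groups. The genes were chosen for this pattern, so it has no test. The added 1 CPM narrows the range of genes at low levels. In SW620 CYGB, SERPINB5, UCHL1 (0.0321 ± 0.0556 CPM) and FAM49A (0.394 ± 0.459 CPM) were below 1 CPM. The summed metallothioneins stood at 117 CPM there, so the likeness holds on this scale and not for fold changes of CPM.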

How the data were processed

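The members and gene lists were chosen with earlier results of these data known. Counts per Ensembl gene were deposited as whole numbers for 12 libraries, not normalized. The deposited tables of differential expression hold a signal per library, which the values show to be the count over a size factor for that library, and, per the file headers, a log2 fold change and the authors' p-value, unadjusted and adjusted. Per the submitters' processing notes, Trimmomatic 0.36, STAR 2.5.2b, Subread 1.5.2, featureCounts, DESeq2 and the build GRCh38 were used. The annotation, strand setting and treatment of reads that match several genes are not given in the sources used here, and the last could lower or mix counts of similar metallothionein genes.

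For each comparison edgeR 4.0.16 (R 4.3.3) was run on the 6 libraries concerned, with filterByExpr, TMM scaling, the two-sided quasi-likelihood test and Benjamini-Hochberg adjustment over all genes tested, with a threshold of 0.05. Standard errors are the size of the log2 fold change divided by the square root of the F statistic. Replicates varied more in the SW lines (common biological coefficient of variation 0.274) than in PEO4 (0.152). Tested on simulated data of the SW design (20351 genes), the fit recovered 23% of 100 genes changed 2-fold and 81.8% of 99 changed 4-fold, and 2 of its 106 calls were false. In the PEO4 design (18611 genes) it recovered 75% and 93% of 100 each, and 14 of its 182 calls were false. Only these genes were changed, all above a minimum mean count, whereas 30.5% of genes were called in the real SW comparison. Because the Benjamini-Hochberg cutoff depends on the share of changed genes, the simulated rates do not measure recovery in the SW data. With 3 libraries on each side the smallest exact permutation p is 0.1, which is why genes were tested in this fit. CPM levels use TMM factors over all 12 libraries (0.862 to 1.26).

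All members are named. From the lists, relatives with more than 3 counts in a library, MTF1, NR3C1, SLC30A1, HMOX1 and TXNRD1, and at most 4 called genes per list and comparison with the smallest adjusted p are named, besides the 5 genes most alike. MT1JP, MT1B, MT1CP, MT1HL1 and MT4 are named for completeness, and DUSP1, HSPA1A and HSPA1B were chosen after their values were seen. Carried-over counts were estimated from genes with at least 50 CPM in every PEO4 control library and at most 3 counts in the median SW library. The alternatives were DESeq2 1.42.0, limma-voom (limma 3.58.1), other scalings, other filters, all 12 libraries in a single model, the replicate number as a block and leaving out each library.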

Additional observations from a re-analysis of the deposited data

How the results depend on the processing

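Over 193 repeats of the 13 member tests, 174 kept direction and side of the threshold, 13 lost a call, 6 gained a call and 0 changed sign. Over 538 repeats for the other named genes, 481 kept both, 40 lost a call, 16 gained a call and 1 changed sign, TXNRD1 in PEO4 without TGF-β replicate 3 (-0.0175, in a range of -0.0175 to 0.17 when a library was left out). Between the SW lines, the number of members called was 3 with at least 10 counts required in every library, which leaves MT1F and MT1G untested, and 4 to 5 when a library was left out. The number of genes called there was 4254 to 7419 when a library was left out. In PEO4 the number of genes called was 967 with DESeq2, 1457 with no filter on low counts, 159 with all 12 libraries in a single model and 72 to 1080 when a library was left out, with the lowest without control replicate 2 and the highest without control replicate 1. The number of members called in PEO4 was 5 with no filter, 1 in the single model and 0 to 4 when a library was left out. The cause of these shifts was not tested.

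The replicate numbers were not stated to pair libraries. Deviations of same-numbered libraries had correlations of 0.0159, 0.670 and 0.567 in the SW lines, and 0.291, -0.140 and 0.481 in PEO4. Those of differently numbered libraries ran from -0.630 to 0.267 in the SW lines and from -0.486 to 0.239 in PEO4. Whether the numbers mark a shared batch was not tested. The main fit, without a block, called 6385 genes between the SW lines and 431 in PEO4. With the replicate number as a block, 10667 genes and 5 members were called between the SW lines, and 2102 genes and 5 members in PEO4, where MT1M (edgeR adjusted p = 0.00536) and MT1F (0.00288) passed. With library totals in place of TMM, group levels moved by more than the replicate SD in 2 of 32 cases, MT1E (46.7 CPM) and MT1F (6.32 CPM) in SW480. Depth limits MT1H, and MT1M in the SW lines, to a few counts, so that differences there were not detectable.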
